A study of Mus musculus with 15 samples.

Results

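The interferon regulatory factors (IRFs) described here are the 8 family members *Irf1*, *Irf2*, *Irf3*, *Irf4*, *Irf5*, *Irf7*, *Irf8* and *Irf9*, chosen by their gene symbols, out of 51763 genes in the count table. All 8 passed the filter on low counts that kept 16919 genes. RNA was sequenced from bone marrow-derived macrophages (BMDMs), cells grown from bone marrow with macrophage colony-stimulating factor, in 15 libraries. The bone marrow came from wild-type female C57BL/6NTac mice aged 8 to 10 weeks, and the cells of 5 mice were pooled before seeding, so the 3 libraries of a condition are technical replicates and every p covers the spread between libraries and not between mice. No IRF gene was deleted or overexpressed in any group. The cells were stimulated for 24 h with PBS as the control, with fully reduced HMGB1 (frHMGB1, 5 µg/mL), with disulfide HMGB1 (dsHMGB1, 5 µg/mL), with the bacterial lipopolysaccharide LPS-EK (LPS, 1 µg/mL), or with LPS and 20 ng/mL interferon-γ (LPS/IFNγ). Per the methods of the study, frHMGB1 was made in buffers with the reducing agent DTT. The dsHMGB1 was a gift from another laboratory and was made without DTT. In a difference between these forms, redox state, source and preparation cannot be told apart. For the LPS part of LPS/IFNγ the labels disagree, with 100 ng/mL in one text and 1 µg/mL in another, and the methods of the study give 100 ng/mL. By those methods the LPS dose was lower in LPS/IFNγ than in LPS alone. In a difference between these conditions, the parts of IFNγ and of the LPS dose then cannot be told apart.

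IRFs are transcription factors that share a DNA-binding domain recognising GAAA repeats, and they carry signals from pattern recognition receptors and interferon receptors to interferon genes and interferon-stimulated genes. In macrophages, IRF3 and IRF7 drive type I interferon genes once kinases have phosphorylated them, IRF9 is the DNA-binding part of the complex ISGF3, which acts downstream of the type I interferon receptor, and IRF1 acts downstream of IFNγ with IRF2 as its antagonist. IRF5 is known for pro-inflammatory cytokine genes, IRF4 for alternative (M2) activation, and IRF8, a partner of PU.1, for the macrophage and dendritic cell lineages. The activity of several of these proteins is set by phosphorylation and transport into the nucleus, which mRNA counts do not measure.

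The promoters of *Irf1* and *Irf8*, the members with the highest levels under LPS/IFNγ, and of *Irf2*, the antagonist of *Irf1*, are shown because they are the members whose promoters hold the letters TTCNNNGAA of GAS, an element of IFNγ-responsive promoters. Each line gives the 250 bases before the RefSeq transcription start, 5′ to 3′, in lower case, with the matched letters in capitals.
Irf1 promoter, GRCm38.p6 chr11:53769764-53770013, + strand: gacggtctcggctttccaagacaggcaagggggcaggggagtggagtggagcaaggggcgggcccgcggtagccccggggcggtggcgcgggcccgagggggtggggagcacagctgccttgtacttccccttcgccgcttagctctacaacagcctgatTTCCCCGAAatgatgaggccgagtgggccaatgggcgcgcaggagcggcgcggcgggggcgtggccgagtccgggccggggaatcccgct
Irf8 promoter, GRCm38.p6 chr8:120736108-120736357, + strand: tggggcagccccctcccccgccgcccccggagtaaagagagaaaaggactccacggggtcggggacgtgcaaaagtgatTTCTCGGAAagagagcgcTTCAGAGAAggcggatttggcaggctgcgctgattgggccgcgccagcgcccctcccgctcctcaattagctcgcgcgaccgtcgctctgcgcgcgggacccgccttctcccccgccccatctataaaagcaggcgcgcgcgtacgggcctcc
Irf2 promoter, GRCm38.p6 chr8:46739495-46739744, + strand: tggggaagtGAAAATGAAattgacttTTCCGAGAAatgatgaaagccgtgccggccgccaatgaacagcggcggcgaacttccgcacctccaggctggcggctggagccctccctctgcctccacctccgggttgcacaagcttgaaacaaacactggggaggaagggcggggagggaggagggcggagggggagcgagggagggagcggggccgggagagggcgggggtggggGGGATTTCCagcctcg
The capitals mark 1 GAS match in *Irf1* (bases 90 to 82 before the start), 2 GAS matches in *Irf8* (bases 171 to 163 and 153 to 145) and 1 in *Irf2* (bases 224 to 216). In *Irf2* they also mark an ISRE-like match to GAAANNGAA (bases 241 to 233) and a κB-like match to GGNNTTTCC (bases 16 to 8). Both strands of 300 bases, 250 before and 50 after each start, were searched in 11 RefSeq promoters of the 8 members, and the matches did not overlap one another. The RefSeq starts of *Irf2* and *Irf4* lie a few bases downstream of their GENCODE starts, and that of *Irf7* lies further inside its gene. Both *Irf9* windows lie within the GENCODE gene, so the bases before its GENCODE start were not searched. Among 32851 mouse promoters of the same length, 8.3% held the GAS letters, 8.56% the ISRE-like letters and 5.82% the κB-like letters. *Irf3* had 1 κB-like match (bases 228 to 220), and none of the 3 motifs was in these windows of *Irf4*, *Irf5*, *Irf7* and *Irf9* or at the second starts of *Irf1* and *Irf8*. A match of letters is a description and not a bound site.

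The libraries held 40934540 to 80925478 counted reads. PBS replicate 3 stood apart from the other libraries: its correlation with the other PBS libraries over log2 CPM was 0.933 and 0.938, where all other replicate pairs lay between 0.987 and 0.993, and 62.7% of the 16919 tested genes differed by more than 1.5-fold between it and the mean of the other PBS libraries. In that library *Fth1* took 6.77% of the counts, mitochondrial genes 0.346% and processed pseudogenes 1.49%. Of the IRFs, *Irf2* in PBS replicate 3 was at 0.391 times and *Irf3* at 1.95 times the mean of the other PBS libraries. In the main fit the spread of each gene was estimated from all 15 libraries, so PBS replicate 3 also entered comparisons without PBS. For *Irf2* in dsHMGB1 against LPS, the SE of the log2 fold change was 0.26 with that library and 0.055 without it. Results of the members that rest on this library are given with and without it. Fold changes of other genes over PBS use all libraries, as do the list counts unless stated. The macrophage markers *Adgre1*, *Csf1r*, *Cd68*, *Itgam*, *Mertk*, *Fcgr1*, *Lyz2* and *Cd14* were all detected, and their summed level in CPM (counts scaled to equal library totals) was 21900 to 26200 for PBS, 27000 to 27300 for frHMGB1, 19600 to 21000 for dsHMGB1, 16100 to 16800 for LPS and 13500 to 13900 for LPS/IFNγ. The largest part of this sum was *Lyz2* in every condition, with 3319204 reads in PBS and 2036833 with LPS/IFNγ over the 3 libraries. The single markers did not move together: *Mertk* had 15821 reads in PBS and 87137 with LPS/IFNγ, and *Csf1r* had 504333 and 272220. Read numbers of markers, here and below, are raw sums over libraries and are not scaled for depth. With scaling, the log2 fold change of *Csf1r* in LPS/IFNγ over PBS was -0.41 (SE 0.13). The 6 B cell markers summed to at most 1.25 CPM, the 5 T and NK cell markers to at most 0.402 CPM and the 6 neutrophil markers to at most 5.47 CPM in any library. In bulk RNA, a change in the number of cells of a type and a change in the RNA of each cell cannot be told apart.

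Over PBS, stimulation with dsHMGB1, LPS and LPS/IFNγ (the 3 inducing stimuli) raised most of the family, while frHMGB1 raised no member past the threshold (edgeR quasi-likelihood, adjusted p under 0.05). In dsHMGB1, 6 of 8 members were higher and 0 lower, where 23.3% of all tested genes were higher, 24.2% lower and 47.4% called in either direction. In LPS, 7 of 8 were higher and 0 lower, with 26.7% of all genes higher, 36.2% lower and 62.9% called. In LPS/IFNγ, 7 were higher and 1 was lower, with 29% of all genes higher, 31.2% lower and 60.3% called. The median log2 fold change of the 8 members was 1.42, 2.25 and 1.83 in dsHMGB1, LPS and LPS/IFNγ, and the median of all tested genes was -0.1, -0.21 and -0.12. Without PBS replicate 3 the members called were 4 in frHMGB1, 8 in dsHMGB1, 7 under LPS and 8 under LPS/IFNγ, where 17.5%, 58.8%, 71.2% and 67.7% of all genes were called. These comparisons share the PBS libraries and are therefore not independent of one another.

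**Figure D1:**
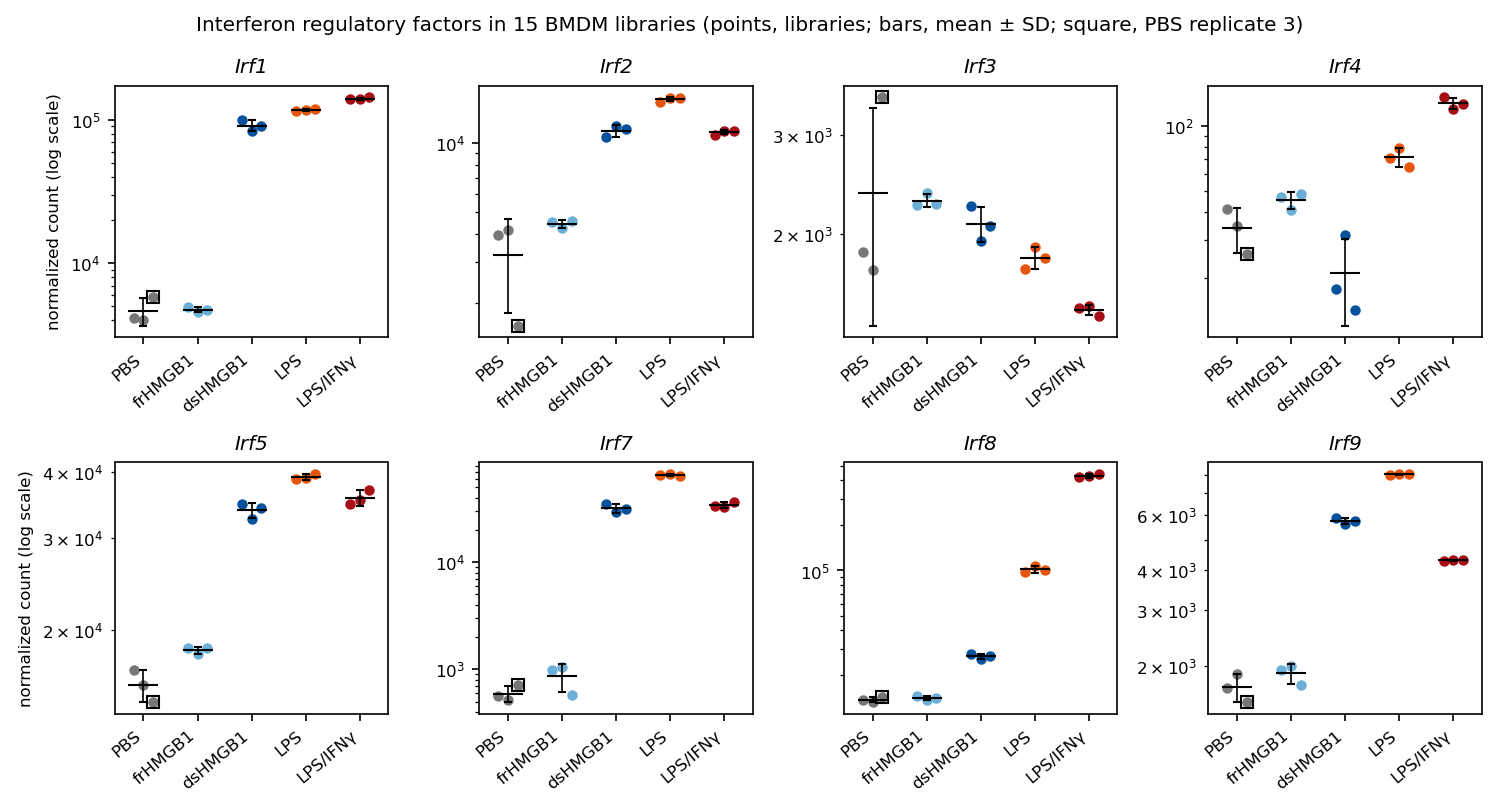
Normalized counts (y axis, log scale, a different range in each panel) of the 8 IRFs in the 5 conditions. Points are libraries, bars are the mean ± SD of 3 libraries and the open square is PBS replicate 3, which is the lowest PBS value of *Irf2* (1585) and the highest of *Irf3* (3493).

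*Irf1*, the activator induced by IFNγ, had the largest fold after *Irf7* in dsHMGB1 and LPS. The gene lies at chr11:53770014-53778374 on the plus strand in GENCODE M21 coordinates of GRCm38. Its normalized count was 4138, 4052 and 5852 in PBS and 4937, 4575 and 4719 in frHMGB1, and these groups overlapped. In dsHMGB1 it was 99390, 83920 and 90420, in LPS 114800, 116500 and 118100, and in LPS/IFNγ 138600, 140000 and 143300. The 3 inducing stimuli did not overlap with one another or with the controls, and the order was dsHMGB1, LPS, LPS/IFNγ. Against PBS the fold was 19.5 in dsHMGB1 (log2 fold change 4.29, SE 0.13, edgeR adjusted p = 1.05e-11), 24.9 under LPS and 30.1 under LPS/IFNγ. The steps from dsHMGB1 to LPS (edgeR adjusted p = 0.0577) and from LPS to LPS/IFNγ (edgeR adjusted p = 0.0516) missed the threshold with all libraries, although DESeq2 called the first of them, and both were called without PBS replicate 3 and when each pair was fitted alone, with log2 fold changes of -0.35 for dsHMGB1 against LPS and 0.27 for LPS/IFNγ against LPS without that library. The annotated gene Gm17334 on the opposite strand shares 135 bases of the *Irf1* exons.

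*Irf2*, the antagonist that competes with IRF1 for the same sites, rose less. Its locus is at chr8:46739732-46847458 on the plus strand. It was at 3950, 4154 and 1585 in PBS and 4525, 4227 and 4554 in frHMGB1. It reached 10600, 11900 and 11460 in dsHMGB1, 15150, 15710 and 15640 under LPS and 10850, 11220 and 11290 under LPS/IFNγ. LPS was above the other conditions in every library, and dsHMGB1 and LPS/IFNγ overlapped. The fold over PBS was 3.5 in dsHMGB1 (log2 fold change 1.81, SE 0.26, edgeR adjusted p = 0.000106), 4.8 under LPS and 3.44 under LPS/IFNγ, and without PBS replicate 3 it was 2.79, 3.8 and 2.73. LPS/IFNγ was lower than LPS by a log2 fold change of -0.48 (95% interval -1 to 0.04), a difference called only without PBS replicate 3 or when these conditions were fitted alone. Within a library, the ratio of *Irf1* to *Irf2* counts per kb of exon was 1.81 to 6.87 in PBS, where the highest value is replicate 3, and 1.93 to 2.03 in frHMGB1. It was 13.1 to 17.4 in dsHMGB1, 13.8 to 14.1 under LPS and 23.2 to 23.8 under LPS/IFNγ, so the ratio under LPS/IFNγ lay above every other library while dsHMGB1 and LPS overlapped.

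*Irf3*, which is present before infection and activated by phosphorylation, was the member with the smallest range of condition means. Its locus is at chr7:44997648-45002848 on the plus strand. Its normalized count was 1857, 1720 and 3493 in PBS and 2249, 2362 and 2256 in frHMGB1. It was 2241, 1943 and 2066 with dsHMGB1, 1727, 1895 and 1810 with LPS, and 1473, 1488 and 1427 with LPS/IFNγ. LPS/IFNγ was below every other library. Against PBS it fell in LPS/IFNγ (log2 fold change -0.69, SE 0.22, edgeR adjusted p = 0.00512), and with all libraries edgeR called no other member lower over PBS. Without PBS replicate 3 the fall was -0.3 on the log2 scale and still called, while frHMGB1 (0.36) and dsHMGB1 (0.22) turned to called rises and LPS stood at 0.01. The direction in frHMGB1 and dsHMGB1 against PBS therefore rested on 1 library. Between dsHMGB1 and frHMGB1, a pair without PBS, the log2 fold change was -0.14 (95% interval -0.57 to 0.29).

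*Irf7*, the interferon-induced relative of *Irf3* that amplifies type I interferon genes, had the largest fold of the family in each of the 3 inducing stimuli against PBS. Its locus is at chr7:141262706-141266481 on the minus strand. It was at 559.9, 514 and 709.9 in PBS and at 986.7, 1052 and 571.6 in frHMGB1, where replicate 3 lay within the PBS range. It rose to 35040, 29300 and 31380 in dsHMGB1, 64800, 66810 and 63600 in LPS, and 33450, 33110 and 36700 in LPS/IFNγ. LPS lay above both other stimuli in every library, and dsHMGB1 and LPS/IFNγ overlapped. The fold over PBS was 53.8 in dsHMGB1 (log2 fold change 5.75, SE 0.2, edgeR adjusted p = 1.29e-10), 110 under LPS and 58 under LPS/IFNγ. LPS/IFNγ was 1.89-fold lower than LPS (edgeR adjusted p = 0.00241), and dsHMGB1 was 2.04-fold lower than LPS (edgeR adjusted p = 0.00125). dsHMGB1 and LPS/IFNγ differed by a log2 fold change of -0.11 (95% interval -0.5 to 0.28). The ratio of *Irf7* to *Irf3* counts per kb of exon in a library was 0.185 to 0.275 with PBS and 0.231 to 0.406 with frHMGB1, and it was 13.7 to 14.3 with dsHMGB1, 32 to 34.2 with LPS and 20.3 to 23.4 with LPS/IFNγ, without overlap among the last 3.

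*Irf9*, the DNA-binding subunit of ISGF3, had its highest mean level under LPS, as *Irf2*, *Irf5* and *Irf7* did. Its locus is at chr14:55603571-55610030 on the plus strand. Its count was 1707, 1888 and 1536 in PBS and 1946, 1999 and 1738 in frHMGB1. It was 5865, 5590 and 5715 in dsHMGB1, 8004, 8058 and 8050 in LPS, and 4283, 4306 and 4329 in LPS/IFNγ. No library of these 3 stimuli overlapped with another, and LPS/IFNγ was the lowest of them. The fold over PBS was 3.34 in dsHMGB1 (log2 fold change 1.74, SE 0.081, edgeR adjusted p = 1.13e-08), 4.69 under LPS and 2.51 under LPS/IFNγ. Both steps between neighbours among these stimuli were called: dsHMGB1 was 1.33-fold above LPS/IFNγ (edgeR adjusted p = 0.00477) and 1.4-fold below LPS (edgeR adjusted p = 0.00549). *Rnf31* lies on the same strand and shares 123 bases (2.28%) of the *Irf9* exons, and its mean count was 1764.6 in PBS and 11144 in dsHMGB1, so a small part of the *Irf9* count is uncertain.

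**Figure D2:**
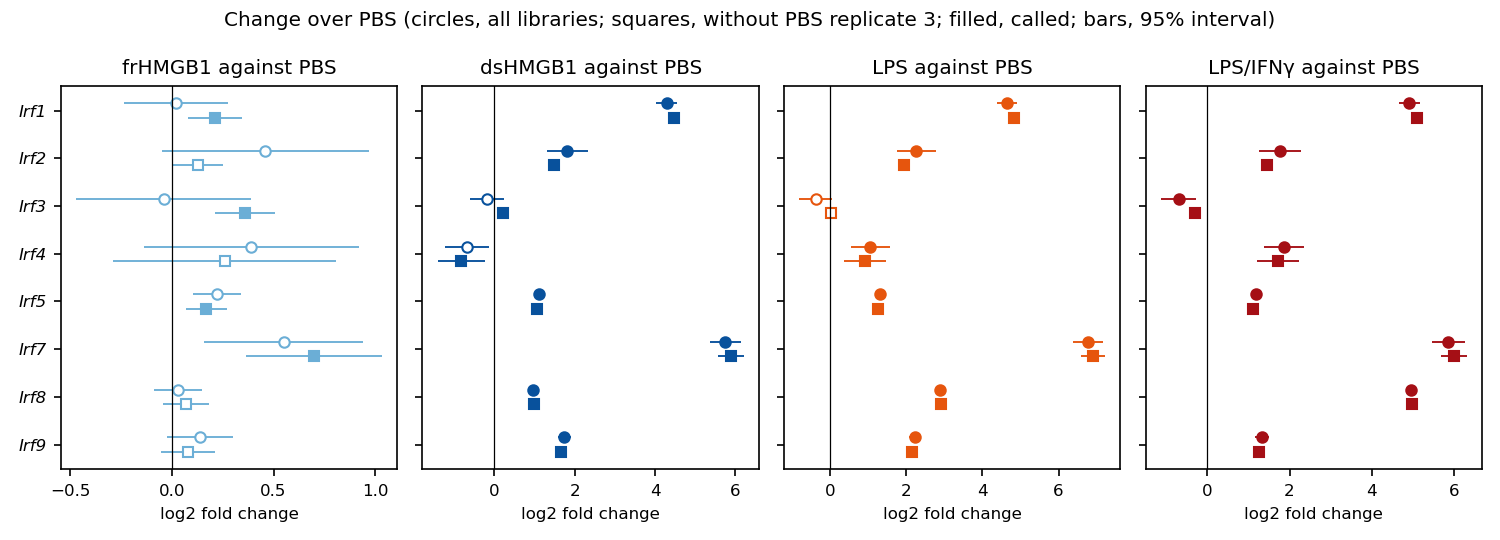
Log2 fold change over PBS (x axis) of the 8 IRFs (y axis) in frHMGB1, dsHMGB1, LPS and LPS/IFNγ, each panel with its own range. Circles use all libraries, squares leave out PBS replicate 3, filled symbols passed the threshold, and bars are 95% intervals; the *Irf3* value in dsHMGB1 moves from -0.18 to 0.22 without that library.

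*Irf5*, associated with pro-inflammatory cytokine genes, was abundant before stimulation and rose in all 3 inducing stimuli. The gene lies at chr6:29526625-29541871 on the plus strand. Its count was 16810, 15740 and 14600 in PBS and 18490, 18000 and 18500 in frHMGB1, and these groups did not overlap. It was 34700, 32550 and 34150 in dsHMGB1, 38700, 38980 and 39630 under LPS and 34680, 35350 and 37000 under LPS/IFNγ. The fold over PBS was 2.15 in dsHMGB1 (log2 fold change 1.1, SE 0.06, edgeR adjusted p = 1.69e-07), 2.49 under LPS and 2.27 under LPS/IFNγ. Differences between these stimuli were not called with all libraries (edgeR), with log2 fold changes of -0.21 (95% interval -0.33 to -0.09) for dsHMGB1 against LPS and -0.08 (-0.2 to 0.04) for dsHMGB1 against LPS/IFNγ. The first of these was called by DESeq2 and, without PBS replicate 3, by edgeR. *Tnpo3*, on the opposite strand, shares 411 bases (14.1%) of the *Irf5* exons. *Bcl2l12* shares 88 bases of *Irf3* exons and *Phrf1* 45 bases of *Irf7* exons in the same way. The libraries were made with a stranded kit, and whether strand was used in counting is not given in the sources used here.

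*Irf4*, associated with M2 genes and a competitor of IRF5, was the only member near the detection limit, with 17 to 138 reads in a library. The gene lies at chr13:30749226-30766976 on the plus strand. Its normalized count was 41.38, 34.68 and 25.77 in PBS and 47.04, 40.88 and 48.54 in frHMGB1. It was 17.79, 31.55 and 14.29 in dsHMGB1, 71.1, 79.21 and 64.7 in LPS, and 134.7, 118.9 and 126.1 in LPS/IFNγ. dsHMGB1 was the lowest condition by its mean and LPS/IFNγ the highest. Against PBS, dsHMGB1 gave a log2 fold change of -0.69 (SE 0.28, edgeR adjusted p = 0.0609), which edgeR did not call with all libraries. It was called by DESeq2, with upper quartile normalization, with the 1 CPM filter, with protein-coding genes alone, without dsHMGB1 replicate 2, and at -0.82 without PBS replicate 3. It rose 2.07-fold in LPS (edgeR adjusted p = 0.0071) and 3.65-fold in LPS/IFNγ (edgeR adjusted p = 5.53e-05) over PBS. dsHMGB1 was 2.11-fold below frHMGB1 (edgeR adjusted p = 0.00566), 3.33-fold below LPS (edgeR adjusted p = 0.000719) and 5.88-fold below LPS/IFNγ (edgeR adjusted p = 1.31e-05). The rise of 1.77-fold from LPS to LPS/IFNγ (edgeR adjusted p = 0.0318) lost its call when any 1 library of LPS or LPS/IFNγ was left out. Within a library, *Irf4* per kb of exon was 0.00105 to 0.00146 times *Irf5* in PBS, 0.000248 to 0.000574 times in dsHMGB1 and 0.00199 to 0.0023 times in LPS/IFNγ, and these did not overlap.

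*Irf8*, the lineage factor that partners with PU.1, showed the widest separation among the inducing stimuli. The gene lies at chr8:120736358-120756694 on the plus strand. It was at 13640, 13340 and 14440 in PBS and 14680, 13620 and 14130 in frHMGB1. It was 27770, 25770 and 27020 in dsHMGB1, 97260, 106900 and 100300 in LPS, and 417400, 423300 and 439500 in LPS/IFNγ. Every step from frHMGB1 upwards was without overlap and called. The fold over PBS was 1.95 in dsHMGB1 (log2 fold change 0.96, SE 0.06, edgeR adjusted p = 1.4e-07), 7.35 under LPS and 30.9 under LPS/IFNγ. LPS/IFNγ was 4.2-fold above LPS (edgeR adjusted p = 2.58e-09), and dsHMGB1 was 3.78-fold below LPS (edgeR adjusted p = 1.12e-08) and 15.9-fold below LPS/IFNγ (edgeR adjusted p = 5.89e-12). PBS replicate 3 was at 1.07 times the mean of the other PBS libraries for *Irf8*, and the calls were the same without it.

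Dendritic cells and B cells also use IRF4 and IRF8. The 6 conventional dendritic cell markers summed to 4.32 to 5.71 CPM with PBS, 3.74 to 4.57 with frHMGB1 and 3.42 to 4.48 with dsHMGB1, and to 7.93 to 8.85 with LPS and 13.9 to 15 with LPS/IFNγ. *Zbtb46* and *Xcr1* had the most reads of these under LPS/IFNγ, with 1545 and 1437 over the 3 libraries against 65 and 278 in PBS. *Clec9a* had 481 reads in PBS, 37 in dsHMGB1, 26 with LPS and 199 with LPS/IFNγ, *Itgae* had 44 in PBS and 0 with LPS/IFNγ, and *Flt3* had 6 reads in all 15 libraries. The 5 plasmacytoid dendritic cell markers summed to 46.2 to 63.5 CPM with PBS, 49.8 to 53.2 with frHMGB1, 131 to 156 with dsHMGB1, 183 to 202 with LPS and 212 to 220 with LPS/IFNγ, nearly all of it *Tcf4*, while the defining marker *Siglech* had 2 reads in all libraries. The T cell marker *Cd3e* had 0 reads. The part of the dendritic cell markers in the *Irf4* and *Irf8* values was not tested.

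In the direct comparisons of stimuli, dsHMGB1 against LPS gave 0 members higher and 4 lower (*Irf4*, *Irf7*, *Irf8*, *Irf9*), where 15.8% of all genes were higher, 10.6% lower and 26.4% called. Against LPS/IFNγ, dsHMGB1 had 2 members higher (*Irf3* and *Irf9*) and 3 lower (*Irf1*, *Irf4* and *Irf8*), where 16.5% of all genes were higher, 16.7% lower and 33.2% called, and without PBS replicate 3 the same 5 members were called against 53.3% of all genes. The *Irf3* difference (log2 fold change 0.51, SE 0.22, edgeR adjusted p = 0.0417) lost its call with DESeq2, with RLE normalization, without the filter on low counts, with protein-coding genes alone, and when any 1 library of frHMGB1, dsHMGB1 or LPS/IFNγ was left out. LPS/IFNγ against LPS gave 2 members higher (*Irf4* and *Irf8*) and 2 lower (*Irf7* and *Irf9*), where 16.3% of all genes were higher, 9.36% lower and 25.7% called. The forms dsHMGB1 and frHMGB1 differ in the redox state of their cysteines and also in source and preparation. Against frHMGB1, dsHMGB1 gave 6 members higher and 1 lower, *Irf4*, where 27.7% of all genes were higher, 23.1% lower and 50.8% called. With PBS replicate 3 left out all 8 were called, *Irf3* and *Irf4* lower, against 68.7% of all genes. In the same fit all 8 members were called between dsHMGB1 and LPS, with *Irf3* the 1 that was higher in dsHMGB1, against 48.8% of all genes, and all 8 between LPS/IFNγ and LPS, with *Irf1*, *Irf4* and *Irf8* higher and the other 5 lower, against 49.4% of all genes. The log2 fold changes of these pairs moved by at most 0.01 when that library was left out, and their standard errors were no larger.

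**Figure D3:**
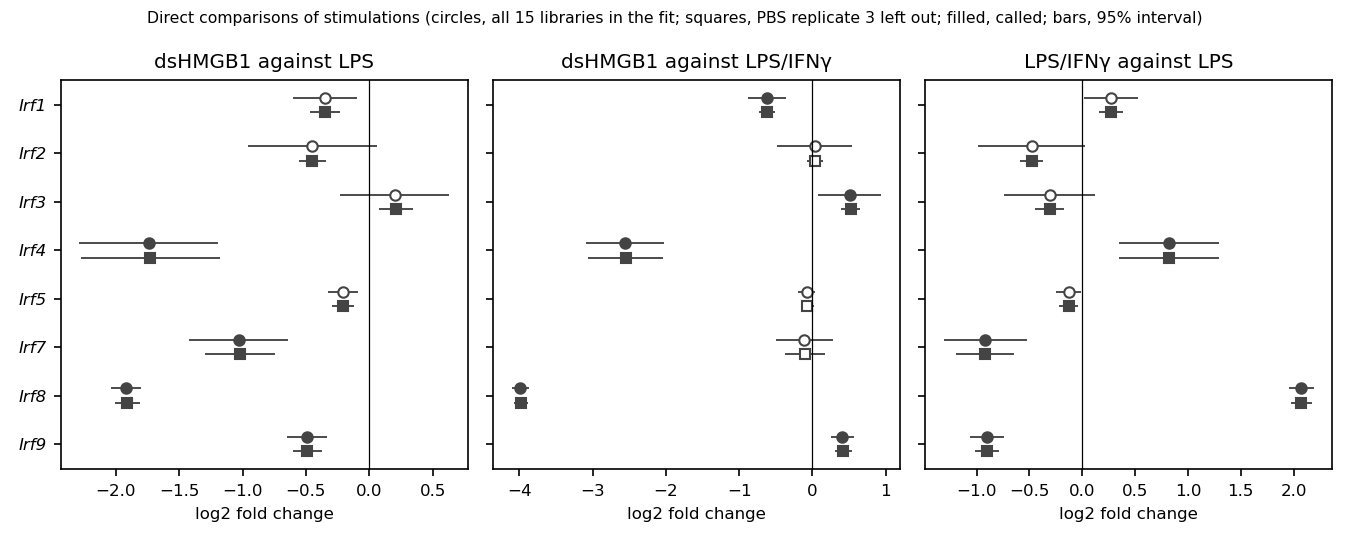
Log2 fold change (x axis) of the 8 IRFs (y axis) in dsHMGB1 against LPS, dsHMGB1 against LPS/IFNγ and LPS/IFNγ against LPS. Circles use all 15 libraries in the fit, squares leave out PBS replicate 3, filled symbols passed the threshold and bars are 95% intervals; *Irf8* is farthest from 0 in each panel, at -1.92, -3.99 and 2.07.

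frHMGB1 gave no called member against PBS (0 of 8, edgeR), where 7% of all genes were called, 1.31% higher and 5.69% lower. At an unadjusted edgeR p under 0.05 there were 2 members (*Irf5* and *Irf7*), beside 2745 of all 16919 tested genes. DESeq2 called 1 member (*Irf5*), beside 1760 of all genes. The log2 fold changes lay between -0.04 for *Irf3* and 0.55 for *Irf7* (95% interval 0.15 to 0.95). Without PBS replicate 3, 4 members were called higher, where 17.5% of all genes were called: *Irf1* (1.16-fold), *Irf3* (1.28-fold), *Irf5* (1.13-fold) and *Irf7* (1.62-fold). *Irf7* was also called without frHMGB1 replicate 3.

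Levels of different members can be set side by side only per length, and they were divided by the merged exon length of each gene. On this scale of normalized counts per kb, *Irf5* was the highest member in PBS (53.3% of the family sum) and frHMGB1 (55.6%), followed by *Irf8* (19.3% and 17.6%). In dsHMGB1 the highest was *Irf1* (45.8%), with *Irf5* at 23.2% and *Irf7* at 16.9%. In LPS *Irf1* was again the highest (37.3%), with *Irf7* at 21.9% and *Irf8* at 18.3%. In LPS/IFNγ *Irf8* was the highest (50.4%) and *Irf1* followed (29.5%). *Irf4* was the lowest in every condition, at no more than 0.0817%. The family sum of normalized counts per kb was 10150 with PBS, 11360 with frHMGB1, 49960 with dsHMGB1, 78530 with LPS and 120100 with LPS/IFNγ. With the length of the longest coding transcript in place of merged exons, a choice made after the data were seen, the highest member of each condition was the same, at 40.4% (*Irf5*) in PBS, 48% (*Irf1*) in dsHMGB1, 37.2% (*Irf1*) in LPS and 59.1% (*Irf8*) in LPS/IFNγ, and *Irf8* passed *Irf7* in LPS. The merged exons of *Irf7* form 1 block of 3776 bases that spans the whole gene, against 2237 bases in its longest coding transcript.

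**Figure D4:**
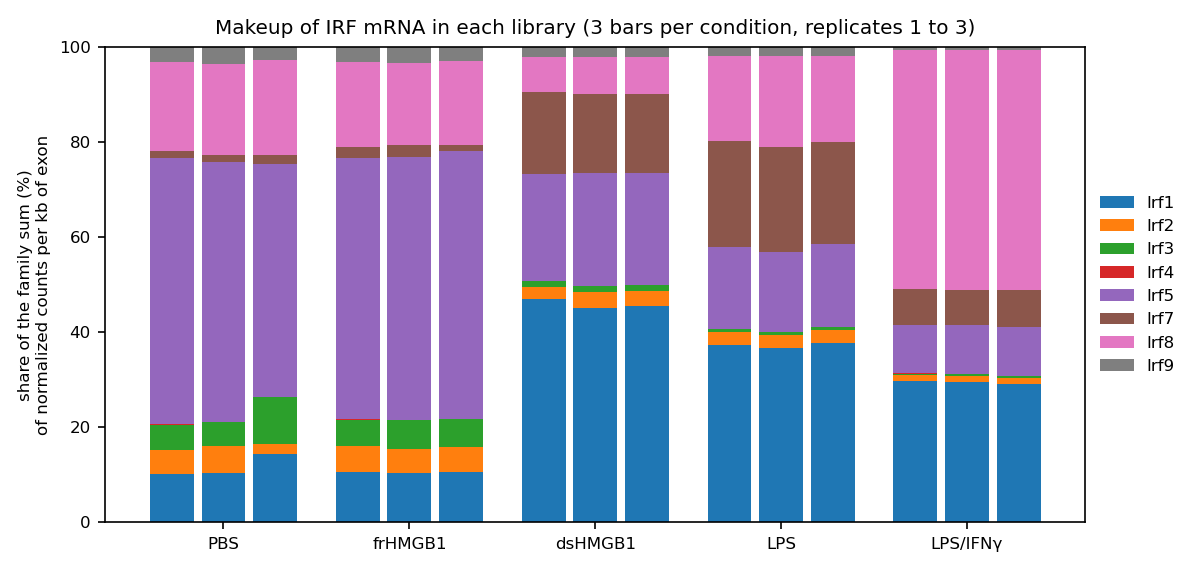
Share of each IRF in the family sum of normalized counts per kb of merged exon (y axis, percent) in each of the 15 libraries, 3 bars per condition. *Irf5* takes the largest share in PBS and frHMGB1, *Irf1* in dsHMGB1 and LPS, and *Irf8* in LPS/IFNγ; *Irf4*, at no more than 0.0875%, is too small to see.

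The interferons and receptors around the family were led by *Ifnb1*, the type I interferon gene that IRF3 and IRF7 activate. *Ifnb1* had 6 reads in the 3 PBS libraries together and 4 in frHMGB1, and its mean normalized count was 473 ± 86.1 (SD, n = 3) in dsHMGB1, 1765 ± 212 under LPS and 3131 ± 160 under LPS/IFNγ. It was lower in dsHMGB1 than in LPS (log2 fold change -1.9, SE 0.17, edgeR adjusted p = 0.00024) and higher in LPS/IFNγ than in LPS (0.83, SE 0.17, edgeR adjusted p = 0.0284), whereas *Irf7* and *Irf9* were lower in LPS/IFNγ than in LPS. Of 12 ligand and receptor genes, 7 were tested. In dsHMGB1 against PBS 4 of these 7 were higher and 0 lower, and *Ifngr1*, a chain of the IFNγ receptor, rose 2.23-fold. In LPS/IFNγ against LPS 1 was higher and 4 lower, among them *Ifnar1* (1.8-fold lower) and *Ifngr1* (1.77-fold lower).

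Among 12 JAK-STAT transducers and their inhibitors, 10 were higher and 0 lower in dsHMGB1 over PBS, and 11 were higher under LPS and under LPS/IFNγ. *Stat2*, whose product is a subunit of ISGF3, rose in dsHMGB1 with a log2 fold change of 4.17 (SE 0.13). *Stat2* was at 39540 in dsHMGB1, 52610 under LPS and 41690 under LPS/IFNγ, and edgeR called none of the 3 pairs of these stimuli with all libraries. The feedback inhibitors *Socs3* (325-fold) and *Socs1* (129-fold) had the largest rises in dsHMGB1. From LPS to LPS/IFNγ *Socs1* rose 1.75-fold and *Stat3* 1.59-fold, while *Usp18*, an inhibitor at the type I interferon receptor, fell 2-fold.

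Of 20 sensors, adaptors and kinases that activate IRF3, IRF5 or IRF7, 19 were found in the table. In dsHMGB1 over PBS 12 were higher and 1 lower, in LPS 11 and 4, and in LPS/IFNγ 11 and 6. The RNA sensors *Ifih1* (62.3-fold) and *Ddx58* (26.3-fold) rose most in dsHMGB1, and *Mavs*, the adaptor for both, was the 1 that fell (1.52-fold lower). *Tmem173*, which encodes STING, the adaptor for cytosolic DNA, was at 2768 ± 99.2 (SD, n = 3) in dsHMGB1, 3787 ± 78.4 under LPS and 29470 ± 909 under LPS/IFNγ, and it was the 1 gene of the list that was higher in LPS/IFNγ than in LPS (7.78-fold, edgeR adjusted p = 1.65e-10). *Ticam2* (2.21-fold) and *Ddx58* (1.93-fold) were among 5 lower.

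Of 17 partners and regulators of IRF proteins, 10 were higher and 3 lower in dsHMGB1 over PBS. *Spi1*, which encodes PU.1, the partner of IRF8 and IRF4, rose in dsHMGB1, LPS and LPS/IFNγ by log2 fold changes of 1.27, 1.26 and 1.22 (SE 0.16 each) and did not show the spread of *Irf8* between these stimuli. *Batf2*, a partner of IRF1, was at 5394 in dsHMGB1, 9781 under LPS and 49740 under LPS/IFNγ, in the same order as *Irf8*, and it was 5.09-fold higher in LPS/IFNγ than in LPS (edgeR adjusted p = 8.06e-08). *Batf*, a partner of IRF4 and IRF8, was at 2359, 5384 and 2789 in dsHMGB1, LPS and LPS/IFNγ, and it was lower in LPS/IFNγ than in LPS (log2 fold change -0.95, SE 0.21, edgeR adjusted p = 0.00218). *Batf3* was 2.45-fold higher in LPS/IFNγ than in LPS. The IRF2-binding proteins *Irf2bpl* (4.33-fold lower) and *Irf2bp2* (3.55-fold lower) fell in dsHMGB1, and *Tnfaip3*, an inhibitor of signalling to NF-κB, rose 22.2-fold. From LPS to LPS/IFNγ *Irf2bpl* fell 5.23-fold and *Trim21* 2.28-fold.

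The list counts over PBS stand beside 47.4%, 62.9% and 60.3% of all genes called with dsHMGB1, LPS and LPS/IFNγ, and those between LPS/IFNγ and LPS beside 25.7%. Target genes were grouped by the member with which they are linked. All 18 tested ISGF3 targets rose over PBS with each of the 3 inducing stimuli, and in frHMGB1 edgeR called 0 of 18 and DESeq2 2, with *Rsad2* (373-fold) and *Mx1* (372-fold) leading in dsHMGB1. In LPS/IFNγ against LPS 0 were higher and 7 lower, among them *Ifit3* (5.73-fold) and *Ifit1* (3.35-fold), with a median log2 fold change of -0.41 where the median of all genes was 0. Of 18 IRF1 and IFNγ targets, 18 were higher over PBS with dsHMGB1 and with LPS, and 17 with LPS/IFNγ. In LPS/IFNγ against LPS 7 were higher and 2 lower (*Casp1*, 1.67-fold, and *Il12a*, 1.44-fold), led, among genes averaging 100 normalized counts or more, by the chemokine *Cxcl9* (14.2-fold) and *Ciita* (3.94-fold), the activator of class II antigen presentation genes. dsHMGB1 against LPS/IFNγ gave 1 of these 18 higher and 14 lower, where 16.5% of all genes were higher, 16.7% lower and 33.2% called.

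All 7 IRF5-linked cytokine genes were higher in the 3 inducing stimuli than in PBS. All 7 were lower in dsHMGB1 than in LPS, where 10.6% of all genes were lower and 26.4% called. *Irf5* itself had a log2 fold change of -0.21 between dsHMGB1 and LPS that DESeq2 called and edgeR did not. *Il12b* was at 35280 in dsHMGB1, 77220 under LPS and 218900 under LPS/IFNγ with 5 reads in the PBS libraries together, and *Il12a* was at 1161, 9832 and 6822 with 0 reads in PBS. Both genes are also in the IRF1 list. In LPS/IFNγ against LPS 1 of the 7 was higher (*Il12b*) and 5 lower, including *Il23a* (77.3-fold) and *Il1b* (7.43-fold). Of 11 IRF4 targets and M2 genes 8 were tested, and 5 were higher and 0 lower in dsHMGB1 and likewise in LPS over PBS, and 5 were higher and 1 lower (*Prdm1*, log2 fold change -1.6, SE 0.27) in LPS/IFNγ. The M2 genes *Retnla*, *Chil3* and *Mgl2* were not tested, with means of 0.2914, 0.577 and 2.573 normalized counts over the 15 libraries. *Arg1*, with a mean of 13.12, was tested, and edgeR called it in none of the comparisons reported here. The chemokine *Ccl22* rose 214-fold in dsHMGB1, and *Ccl17* was at 45.85 there with 1 read in PBS. In LPS/IFNγ against LPS *Ccl24* (6.2-fold) and *Mrc1* (1.64-fold) rose, and *Prdm1* (5.33-fold) and *Ccl17* fell, the latter from 459.8 in LPS to 2.116 in LPS/IFNγ. Of the 8 tested genes 3 were higher and 4 lower in that comparison. Of 10 IRF8 and PU.1 targets 5 were higher and 1 lower in dsHMGB1 and 4 and 2 under LPS and under LPS/IFNγ, so 6 of 10 were called in each, a share near that of all genes. *Pml* (9.52-fold) and *Il18* (5.24-fold) led the rises in dsHMGB1. Between LPS/IFNγ and LPS, where *Irf8* rose 4.2-fold, 0 of the 10 were higher and 2 lower (*Il18*, 1.53-fold, and *Fcgr1*, 1.38-fold).

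The median log2 fold change in dsHMGB1 over PBS was 0.71 for the ligands and receptors, 2.54 for the JAK-STAT genes, 0.86 for the sensors, 1.27 for the partners, 5.98 for the ISGF3 targets, 5.49 for the IRF1 targets, 1.59 for the IRF4 and M2 genes and 0.27 for the IRF8 and PU.1 targets, where all genes had -0.1. No median is given for the IRF5-linked cytokine genes because the gene at the middle of that list, *Il23a*, had 0 reads in PBS. The lists were chosen with earlier results known, and nothing is called particular to a list from these counts. Without PBS replicate 3 several of the counts grew. Of the ISGF3 targets 18 were called between dsHMGB1 and LPS and 12 between LPS/IFNγ and LPS, of the partners 12 and 13, and of the sensors 15 and 14, in either direction, while the share of all genes called in these comparisons was 48.8% and 49.4% in that fit. With all libraries, frHMGB1 over PBS by edgeR gave 2 JAK-STAT genes, 1 sensor gene and 2 IRF5-linked cytokine genes higher, 0 in each of the other 6 lists, and 0 lower in any, where 7% of all genes were called. DESeq2 called 1 ligand or receptor gene, 2 JAK-STAT genes, 1 sensor gene, 2 partners, 2 ISGF3 targets and 1 IRF1 target there. It also called 3 IRF5-linked cytokine genes, 1 IRF8 and PU.1 target and 0 of the IRF4 and M2 genes. Of all 16919 tested genes, DESeq2 called 1760 in that comparison. Leaving out PBS replicate 3, edgeR called 6 ISGF3 targets and 5 IRF1 and IFNγ targets, with 17.5% of all genes called.

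**Figure D5:**
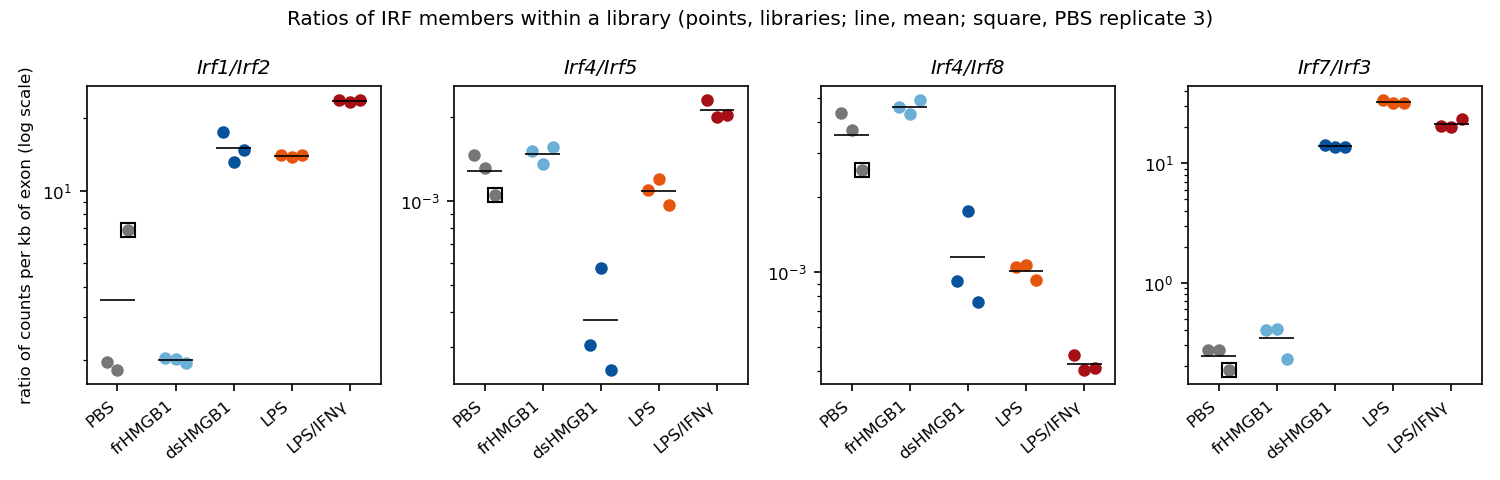
Ratios of IRF counts per kb of merged exon within a library (y axis, log scale, a different range in each panel). Points are libraries, lines are means and the open square is PBS replicate 3; *Irf4/Irf8* is lowest in LPS/IFNγ (0.000404 to 0.000464), and *Irf7/Irf3* is highest in LPS (32 to 34.2).

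The genes nearest to each member in profile were found among 10095 protein-coding genes by the root mean square difference of the 5 centred condition means on the log2 scale. *Irf8* was nearest to *Galnt3* (0.098), *Tnc* (0.14) and *Pmepa1* (0.21), and only 4 genes lay within 0.25. *Tnc* was at 612.8 in PBS, 1549 in dsHMGB1, 5431 under LPS and 21740 under LPS/IFNγ, the order of *Irf8*. *Irf7* was nearest to *Slc2a6* (0.15), *Phf11a* (0.21) and *Il15ra* (0.21), with 9 genes within 0.25, and *Irf1* to *Clic5* (0.13), *Vcam1* (0.14) and *Cd274* (0.14), with 17. *Irf4* had 1 gene within 0.25, *Hmga2* (0.21), followed by *Mt1* (0.28) and *Znrf3* (0.29), and *Hmga2* shared its lowest level in dsHMGB1 (898.2) and its highest in LPS/IFNγ (4354). The profile of *Irf9* was close to those of *Tcof1*, *Slc12a4* and *Itprip* (99 genes within 0.25), that of *Irf2* to *Fmr1*, *Tut7* and *Ep400* (147 genes) and that of *Irf5* to *Trmt1l* and *Pnrc1* among others (827 genes). *Irf3*, nearest to *Thg1l*, *Rabepk* and *Naa80*, had 2073 genes within 0.25, so its profile was a common one. With a pseudocount of 10 in place of 1, all 3 nearest genes were shared for *Irf2*, *Irf3*, *Irf5* and *Irf8*, 2 of 3 for *Irf1*, *Irf4* and *Irf9*, and 1 of 3 for *Irf7*. These are descriptions over 5 condition means that share the same libraries.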

How the data were processed

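RNA from the 15 libraries was, per the labels and the methods of the study, prepared as stranded mRNA libraries, sequenced on a NextSeq 2000, demultiplexed with CASAVA, aligned to GRCm38 with STAR and compared with DESeq2. The authors deposited 1 table of raw read counts per gene, whole numbers without normalization or filter. Not given in the sources used here: the counting program, its strand setting and annotation. Samples were grouped by the labels, and 0 columns lacked a sample.

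Genes were kept by edgeR's filterByExpr (minimum count 10, total 15), and conditions were compared with the quasi-likelihood test of edgeR 4.0.16 (TMM, all 15 libraries, no covariates, Benjamini-Hochberg over 16919 genes, called under 0.05). Normalized counts, unshrunken log2 fold changes, SE and Wald 95% intervals come from DESeq2 1.42.0, in R 4.3.3. Scripts were tested on simulated data. No pair of replicates was near enough to be 1 library (chi-square per degree of freedom at least 4.308). This value was 22.94 to 86.63 among the dsHMGB1 libraries and 692 and 762.7 for the pairs with PBS replicate 3. In all other pairs it was at most 10.05, so the dsHMGB1 replicates were less alike than those of frHMGB1, LPS and LPS/IFNγ. Depth, 40934540 to 80925478 reads, leaves *Irf4* imprecise.

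Gene positions and lengths are from GENCODE M21 (GRCm38), promoters from RefSeq (GRCm38.p6). The members and lists were chosen with earlier results of these data known. From each list the 2 largest called rises and falls in dsHMGB1 against PBS and in LPS/IFNγ against LPS were named (mean of at least 100 normalized counts), with *Ifnb1*, *Stat2*, *Spi1*, *Batf* and *Batf2*. Other genes are markers, overlapping genes, the 3 nearest profiles or M2 genes that were untested or not called. Alternatives were DESeq2's test, RLE and upper quartile normalization, no filter, a filter of 1 CPM in 3 libraries, protein-coding genes alone, a fold above 2 (glmTreat), each pair alone, a replicate block, each library left out, and a pseudocount of 10 in place of 1 for profiles. Protein sequences were not used here. Some genes that this rule names are not reported here.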

Additional observations from a re-analysis of the deposited data

How the results depend on the processing

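Of the refits of the members' log2 fold changes, 1436 kept their direction and side of the threshold, 40 gained a call, 39 lost one and 21 changed sign. Changes of sign were of values near 0 or followed PBS replicate 3. In frHMGB1 against PBS, *Irf1* came to -0.04 with upper quartile normalization or protein-coding genes alone, -0.02 without the filter and -0.01 with the 1 CPM filter, and *Irf8* to -0.02, -0.03 and -0.01 with upper quartile normalization, protein-coding genes alone and no filter. Leaving out 1 library moved *Irf1* there from -0.03 to 0.21 and *Irf3* from -0.17 to 0.35, and *Irf3* in dsHMGB1 against PBS from -0.33 to 0.19 (edgeR estimates), the highest values without PBS replicate 3.

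The number of members called in frHMGB1 against PBS was 0, and 1 with DESeq2 or without frHMGB1 replicate 3. It was 4 in dsHMGB1 against LPS and 4 in LPS/IFNγ against LPS, and 7 and 8 when each pair was fitted alone. Testing for a fold above 2 gave 1 in each of these, 3 in dsHMGB1 against frHMGB1 and 2 in dsHMGB1 against LPS/IFNγ. Leaving out 1 library gave 0 to 4 in frHMGB1 against PBS, 4 to 8 in dsHMGB1 against LPS and 3 to 8 in LPS/IFNγ against LPS, the highest without PBS replicate 3. The effect of that library and of the transcript lengths was examined after seeing the data.

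Over all genes, frHMGB1 against PBS called 1185, and 716 with the 1 CPM filter, 70 among protein-coding genes, 189 with the pair alone, 634 for a fold above 2 and 3035 without PBS replicate 3. The pair alone gave 4747 for dsHMGB1 against PBS (8028 with all libraries), 6985 against LPS (4461) and 8580 against LPS/IFNγ (5621), and 8999 for LPS/IFNγ against LPS (4348), and without PBS replicate 3 the last 3 were 8465, 9238 and 8566. For a fold above 2, dsHMGB1, LPS and LPS/IFNγ against PBS gave 2657, 5229 and 4967 (8028, 10636 and 10198 without it), dsHMGB1 against frHMGB1 3396 (8593), dsHMGB1 against LPS and LPS/IFNγ 931 and 1142, and LPS/IFNγ against LPS 1093. Upper quartile normalization moved the median of all genes in LPS against PBS from -0.21 to -0.55, and it called *Irf3* lower there. The cause of these changes was not tested.

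In the labels, libraries of different conditions are linked only by a replicate number. Of 30 pairs of same-numbered libraries, 1 had deviations correlated above 0.1, and the range was -0.379 to 0.371. This count does not cover libraries with different numbers. Among those, dsHMGB1 replicate 1 correlated at 0.459 with PBS replicate 3 and at -0.438 with PBS replicate 2, and what lies behind this was not tested. With the replicate number as a block, *Irf3* in frHMGB1 against PBS was 0.02, and *Irf3* in dsHMGB1 against LPS/IFNγ lost its call at a log2 fold change of 0.53. Low counts limit the precision of *Irf4*.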
